A study of Bos taurus with 6 samples.

Results

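The 10 genes described here encode feedback inhibitors of extracellular signal-regulated kinase (ERK) signaling and ETS transcription factors whose transcripts follow ERK activity. They are the dual specificity phosphatases DUSP1, DUSP4, DUSP5 and DUSP6, the Sprouty genes SPRY1, SPRY2 and SPRY4, the Sprouty-related gene SPRED1, and the ETS factor genes ETV4 and ETV5. The members were chosen by name, as the entries of the deposited table whose gene symbol equals a listed name. Earlier results of these data were known when the names were listed, so counts set beside all transcript clusters are descriptive. Each name was found at 1 transcript cluster (the probes summarized to a single signal for a gene), so that 10 of 26773 transcript clusters are described and no member was lost to a filter.

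The RNA came from 6 cultures of primary bovine granulosa cells (GC), the follicle cells that surround the oocyte, of which 3 had been plated at normal density and 3 with 10 times as many cells per well (high density). All cultures were kept serum-free for 9 days on collagen-coated plates with 20 ng/ml FSH, 50 ng/ml IGF-1 and 2 μM androstenedione, supplied at the same concentrations in both groups. The GC preparations were pools of cells aspirated from follicles of many slaughterhouse cows of undefined cycle stage, and no gene was altered in either group. Whether a pool was shared between the densities is not given in the sources used here. The p-values rest on the spread between the cultures of a density, with the 6 cultures taken as unpaired. Plating density was the condition compared, and the question was which transcripts differ after long culture in a dense layer.

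ERK is switched on by growth factor receptors through RAS, RAF and MEK kinases. The signal is limited by proteins that it induces itself. Sprouty and Spred proteins act upstream, on RAS and RAF, while dual specificity phosphatases remove the activating phosphates from ERK, in the nucleus (DUSP1, DUSP4, DUSP5) or in the cytoplasm (DUSP6). ETV4 and ETV5 belong to the PEA3 group of ETS factors and are known as transcriptional targets of fibroblast growth factor (FGF) signaling. In the preovulatory follicle the LH surge activates ERK in GC by way of EGF-like ligands.

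One array was hybridized per culture. Values are log2 signals, and the array medians lay between 4.34 and 4.43. The 95th percentile of the 82 reporter control rows, 4.62, served as the background level, and in 51.2% of all transcript clusters both group means were at or below it. High density replicate 2 stood apart, with Euclidean distances of 47.5 and 45.0 to the other high density cultures, which were 35.3 from each other, while the normal density cultures lay between 31.2 and 32.4 from each other. Of 13 granulosa cell markers none was below the background level at both densities, and 6 were called down at high density (3.51% of all transcript clusters were), with a summed linear signal of 8823 to 9361 at normal and 7374 to 7481 at high density. Of these 6, INHA fell by 2.16 on the log2 scale, and CYP19A1, not above background in any high density culture, was at least 3.70-fold lower. At any FC 3 granulosa markers, NR5A2, CYP11A1 and WT1, passed the FDR threshold with the higher signal at high density, by 0.41, 0.26 and 0.45. WT1 lay near background, with means of 4.22 and 4.67, and was above it in 0 normal density and 2 high density cultures. Of 8 leukocyte markers all 8, of 7 endothelial markers 6 and of 5 red blood cell markers 4 were below background at both densities. The remaining red blood cell gene, HBA, was not above background in any normal density culture and was at least 27.0-fold higher at high density, the background level standing for the lower signal in such bounds. Of 5 surface epithelium markers 3 were below background, and the summed linear signal was 129.7 to 139.2 at normal and 146.0 to 155.3 at high density. Among 5 fibroblast and stroma markers THY1 and COL1A1 were called up. At any FC COL3A1 and PDGFRA also passed the FDR threshold with the higher signal at high density, by 0.39 and 0.32, and DCN did not pass. The summed linear signal of the 5 was 2102 to 2263 at normal and 2619 to 2731 at high density. Of the theca markers CYP17A1 was below background, at 2.93 and 2.92, and INSL3 rose by 1.82 on the log2 scale. The part of these marker changes in the results below was not tested.

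At high density SPRY4 and SPRY1 rose, and DUSP4 was called with the higher signal although it was below background at both densities. These 3 were the called genes. A transcript cluster was termed called when its fold change (FC) exceeded 1.5 in size and both its p-value and its false discovery rate (FDR) were below 0.05 in limma's moderated test, adjusted over all transcript clusters. By this rule 7.49% of all transcript clusters were called, 3.97% up and 3.51% down. The median log2 fold change (log2FC, high minus normal density) was 0.31 over the 10 genes and 0.02 over all transcript clusters. At any FC, the FDR threshold was passed by 7 of the 10 genes, 6 with the higher signal at high density and 1, DUSP6, with the lower. Of all transcript clusters 19.1% passed it, 8.64% with the higher and 10.4% with the lower signal. The cultures of the different densities did not overlap for the same 7 of the 10 genes, and for 37.3% of all transcript clusters. Taken from the same 6 cultures as the FDR, this adds no separate support. Among the transcript clusters with a group mean above background 12.8% were called and 31.9% passed the FDR threshold, and of the 7 members above background 2 were called and 5 passed the FDR threshold. Because each RNA sample is of a whole culture, more cells with a transcript and more transcript per cell cannot be told apart. A version of the methods' t-test with unequal variances, which shares no spread between groups or genes, called 838 of all transcript clusters in place of 2005, and of the 10 genes it called DUSP4 alone. With 3 cultures per density, an exact permutation test cannot give a p below 0.1.

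**Figure D1:**
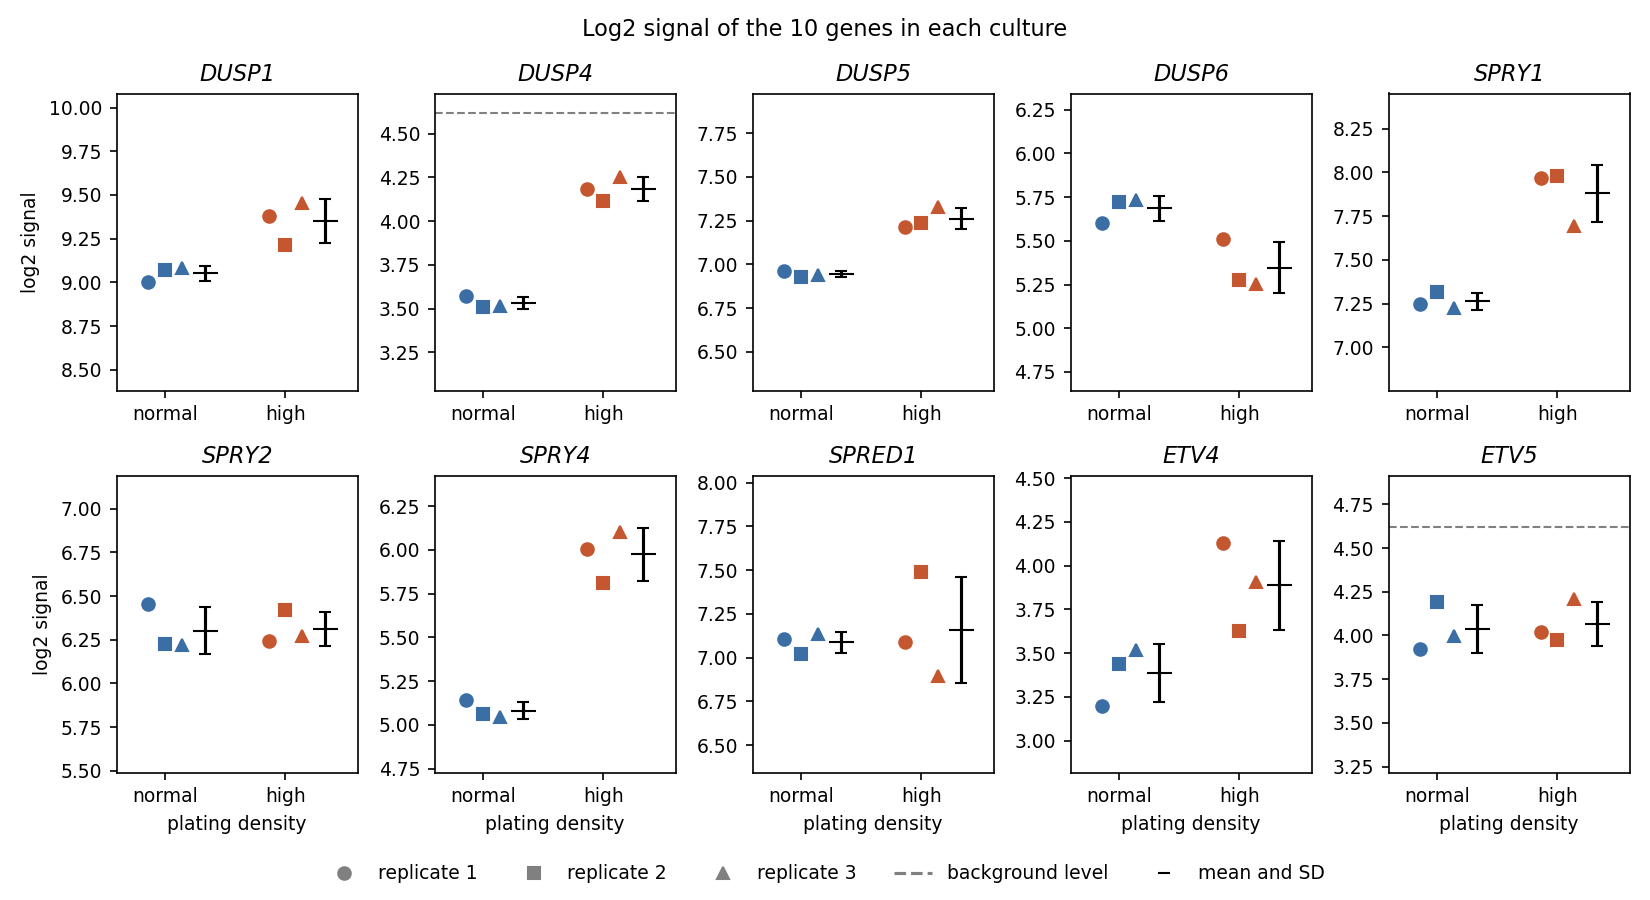
Log2 signal (y axis, the same span of log2 units in every panel) of each gene in the 3 normal density (blue) and 3 high density (orange) cultures, with symbols for the replicate numbers and the mean with its SD. The dashed line is the background level of 4.62, below which DUSP4, ETV5 and ETV4 lie in all cultures (for ETV4 it is outside the panel). SPRY4, SPRY1 and DUSP4 show the widest separation of the densities, and SPRY2, SPRED1 and ETV5 overlap.

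The Sprouty genes divided into members that rose at high density and a member whose cultures overlapped. Sprouty proteins are membrane-associated inhibitors that are phosphorylated after growth factor stimulation and restrain RAS activation. SPRY4 (transcript cluster 12883735) had log2 signals of 5.14, 5.06 and 5.05 in the normal density cultures and of 6.01, 5.81 and 6.10 in the high density cultures. All high density cultures were above all normal density cultures, and the gap between the groups was wider than the range within either. The means were 5.08 ± 0.05 and 5.97 ± 0.15 (SD, n = 3), an FC of 1.86 or a log2FC of 0.89 ± 0.09 (SE, adjusted p = 6.97e-04 by limma). In size this change was larger than that of 96.9% of all transcript clusters. It stayed called with any single culture left out, with log2FCs between 0.83 and 0.97, but not by the test with unequal variances (adjusted p = 0.0667).

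SPRY1 (transcript cluster 12745981) was measured at 7.25, 7.32 and 7.23 at normal density and at 7.97, 7.98 and 7.69 at high density. Again the groups did not overlap, and high density replicate 3 was the lowest of its group. From 7.26 ± 0.05 the mean rose to 7.88 ± 0.16 (SD, n = 3), an FC of 1.53 and a log2FC of 0.62 ± 0.09 (SE, adjusted p = 0.00410 by limma). This is just above the FC threshold, which is 0.58 on the log2 scale, and the 95% confidence interval reached from 0.40 to 0.84. Without high density replicate 1 or without high density replicate 2 the log2FC was 0.57, in both cases below the FC threshold. With array medians made equal it was 0.57, and with array weights 0.54, not called in either case.

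SPRY2 (transcript cluster 12712605), the Sprouty gene best known as a modulator of EGF receptor degradation, was measured at 6.46, 6.22 and 6.22 at normal density and at 6.24, 6.42 and 6.27 at high density. The cultures of both densities were mixed in order. The log2FC was 0.01 with a 95% confidence interval from −0.21 to 0.23 (adjusted p = 0.945 by limma), so a change beyond the FC threshold lay outside the interval.

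SPRED1 (transcript cluster 12689764) encodes a Sprouty-related protein that brings the RAS inhibitor neurofibromin to the plasma membrane. Its signals were 7.11, 7.02 and 7.13 at normal density and 7.09, 7.49 and 6.90 at high density. The spread at high density (SD 0.30) was wider than at normal density (SD 0.06), with high density replicate 2 the highest and replicate 3 the lowest of all 6 cultures. The log2FC of 0.07 ± 0.14 (SE, adjusted p = 0.782 by limma) did not pass the test, and its 95% confidence interval was from −0.27 to 0.41. Without high density replicate 2 the value was −0.093, also not called.

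Among the dual specificity phosphatases, DUSP4 was the called member, with signals below the background level throughout. DUSP4 (transcript cluster 12825490), an inducible nuclear phosphatase, was measured at 3.57, 3.51 and 3.52 at normal density and at 4.19, 4.11 and 4.25 at high density. The groups were far apart relative to their own spread, but no culture reached 4.62. The mean log2 signals differed by 0.65 ± 0.07 (SE, adjusted p = 8.49e-04 by limma), at 3.53 ± 0.04 and 4.18 ± 0.07 (SD, n = 3). It stayed called with any single culture left out, between 0.62 and 0.69, but both means are below background, so that this is a difference between dim signals and gives no fold. A setting that removed transcript clusters below background left DUSP4 out, with 2 of 7 remaining members called.

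DUSP1 and DUSP5, both nuclear and induced early after ERK activation, passed the FDR but not the FC threshold. DUSP1 (transcript cluster 12788100) had signals of 9.00, 9.07 and 9.08 at normal density and of 9.38, 9.21 and 9.46 at high density. For DUSP5 (transcript cluster 12819271), which acts on ERK in particular, they were 6.96, 6.93 and 6.94 at normal and 7.21, 7.24 and 7.33 at high density. In both genes the high density cultures lay above the normal density cultures without overlap. The log2FC of DUSP1 was 0.30 ± 0.08 (SE, adjusted p = 0.0457 by limma) and that of DUSP5 was 0.32 ± 0.07 (SE, adjusted p = 0.0163 by limma). These correspond to FCs of 1.23 and 1.25, and the upper ends of the 95% confidence intervals, 0.49 and 0.47, were below the FC threshold. The adjusted p of DUSP1 was between 0.00754 and 0.191 over the alternative settings and that of DUSP5 between 0.00489 and 0.0804.

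DUSP6 (transcript cluster 12866101) was the member with the lower signal at high density. This cytoplasmic phosphatase is selective for ERK and is widely used as a readout of ERK activity. Its signals were 5.60, 5.72 and 5.73 at normal density and 5.51, 5.28 and 5.25 at high density. Every high density culture was below every normal density culture, with high density replicate 1 closest to them. The means were 5.69 ± 0.07 and 5.35 ± 0.14 (SD, n = 3), and the log2FC was −0.34 ± 0.09 (SE, adjusted p = 0.0414 by limma), an FC of 1.26 in size that did not reach the threshold. Over the alternative settings it lay between −0.42 and −0.29, with adjusted p between 0.0170 and 0.179.

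The signals of the ETS factor genes were below the background level in all 6 cultures. ETV4 (transcript cluster 12771603) was measured at 3.20, 3.44 and 3.52 at normal density and at 4.13, 3.63 and 3.91 at high density. The groups did not overlap, although high density replicate 2 was close to the highest normal density culture. The difference in log2 signal of 0.50 ± 0.14 (SE, adjusted p = 0.0477 by limma) passed the FDR but not the FC threshold. Without high density replicate 2 it was 0.63 and called, in 1 of 13 alternative settings that kept the gene. The FDR threshold was not passed by the methods' t-test (adjusted p = 0.162) or the test with unequal variances (adjusted p = 0.217). For ETV5 (transcript cluster 12682223) the signals were 3.92, 4.19 and 3.99 at normal density and 4.02, 3.97 and 4.21 at high density. These overlapped, with a difference in log2 signal of 0.03 (95% confidence interval from −0.20 to 0.27, adjusted p = 0.869 by limma). At this signal a difference in ETV4 or ETV5 is limited by the background of the array, and none is given as a fold.

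**Figure D2:**
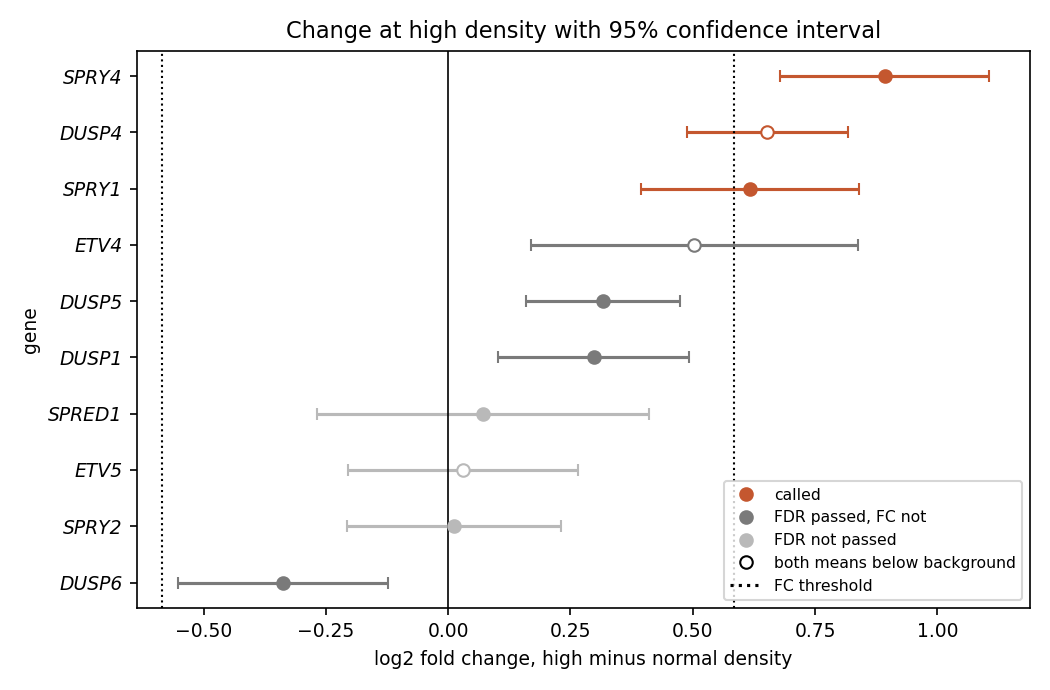
Log2 fold change of each gene, high minus normal density (x axis), estimated by limma with its 95% confidence interval, ordered by size, with dotted lines at an FC of 1.5. SPRY4 at 0.89 is the gene whose whole interval lies above the FC threshold, and DUSP6 at −0.34 is the gene whose interval lies below 0.

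Across the members, the high density cultures were the more variable. The SD was larger at high density for 8 of the 10 genes. This was not particular to them. Over all transcript clusters the distances between cultures were 35.3 to 47.5 at high and 31.2 to 32.4 at normal density. The share of all transcript clusters with the larger SD at high density was not computed. Of the 6 genes that passed the FDR threshold with the higher signal at high density, high density replicate 2 was the lowest high density culture for 4, namely DUSP1, DUSP4, SPRY4 and ETV4. The normal density cultures did not exceed it in any of them.

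A change in one gene of a family and none called in another does not show that they differ, so the differences themselves were tested. Within each array, the log2 signal of a gene was subtracted from that of another of its family, which gives a quantity that does not depend on the scaling of the array, and its shift from normal to high density was compared by a two-sided exact permutation test. In 10 of 13 such pairs the groups of cultures did not overlap (exact p = 0.1, the smallest possible, and 0.13 after Benjamini-Hochberg adjustment over the 13 pairs), so that none passes the threshold of 0.05 and none could. In 4 of these 10 pairs a gene was below background (the 3 with DUSP4, and ETV4 with ETV5), and of the 9 pairs with both genes above background 6 did not overlap. The share over pairs of all transcript clusters was not computed. For single transcript clusters, which is another quantity, it was 37.3%. The 13 pairs reuse the same 10 genes, so they are not independent of each other and their count is a description only.

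SPRY4 shifted against SPRY2 by 0.88 log2 units, the within-array difference going from −1.22 ± 0.08 to −0.34 ± 0.24 (SD, n = 3). SPRY1 shifted against SPRY2 by 0.60, and SPRY4 against SPRED1 by 0.82. Between SPRY4 and SPRY1 the shift was 0.28 and the groups overlapped (exact p = 0.2, adjusted 0.236). Within the phosphatases above background, the shift was 0.65 for DUSP5 against DUSP6 and 0.64 for DUSP1 against DUSP6, whereas DUSP5 and DUSP1 moved by nearly the same amount, with a shift of 0.02 between them and overlapping groups (exact p = 0.8). SPRED1 and SPRY2 overlapped as well, with a shift of 0.06 (exact p = 0.8). ETV4 shifted against ETV5 by 0.47, both being below background.

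**Figure D3:**
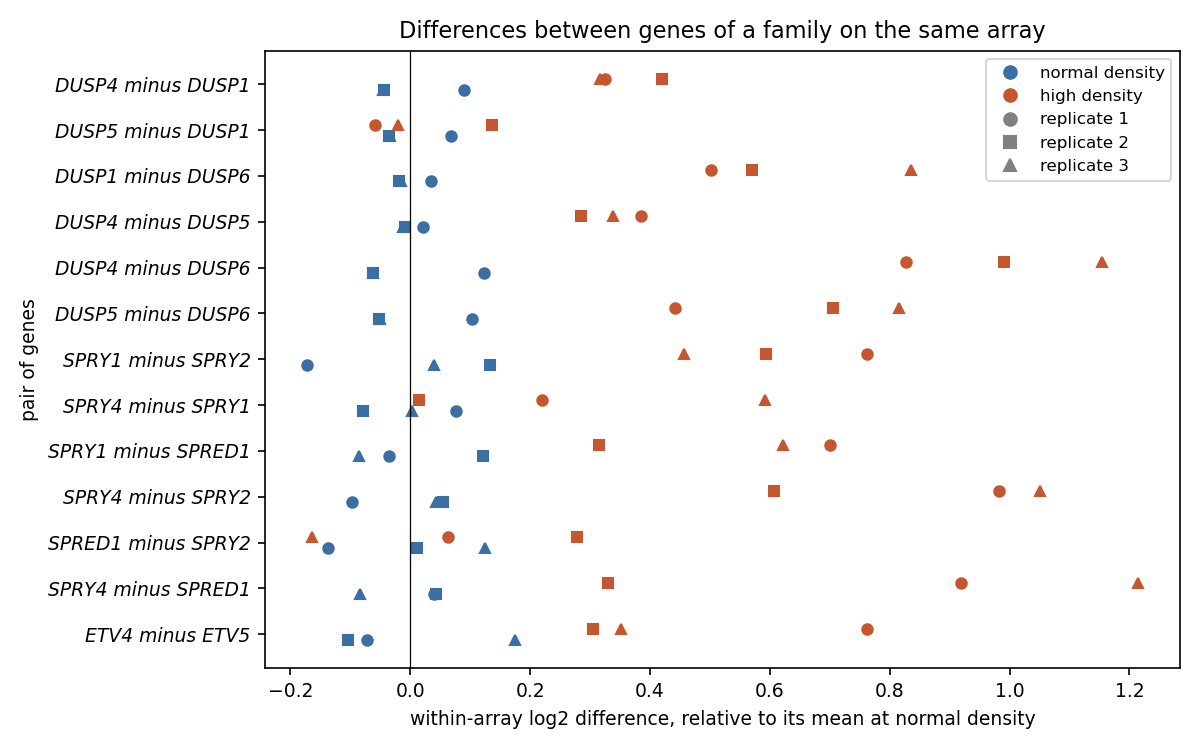
Within-array log2 differences between 2 genes of a family (x axis, relative to the mean difference at normal density) for the 13 pairs, with normal density cultures in blue, high density cultures in orange and symbols for the replicates. The pairs of DUSP6 with the other phosphatases and of SPRY4 with SPRY2 and SPRED1 are fully separated, while DUSP5 with DUSP1, SPRED1 with SPRY2 and SPRY4 with SPRY1 overlap.

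The other genes of the pathway were taken from 6 lists by role, of which 119 of 123 genes were measured. Of these 119 genes 11 were called up and 4 down, with a median log2FC of 0.09. Of all transcript clusters 7.49% were called, and 12.8% of those with a group mean above background. Of the 119 genes 29 were below background at both densities. The cascade that carries the signal from receptor to ERK had no called gene, except that MAP2K1 was called with a second quantile normalization and with normal density replicate 1 or high density replicate 3 left out.

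In the RAS to ERK cascade 0 of 28 genes were called by limma and 0 by the methods' t-test. An unadjusted p below 0.05 in limma was found for 17 of the 28, against 32.3% of all transcript clusters. At any FC 8 passed the FDR threshold with the higher and 5 with the lower signal at high density, against 8.64% and 10.4% of all transcript clusters. However, 0 of the 28 genes were below background at both densities. Among transcript clusters with a group mean above background 31.9% passed it in either direction. The list's median log2FC was 0.01. MAPK3, the gene of the kinase ERK1, had a log2FC of −0.16 (95% confidence interval from −0.32 to 0.00, adjusted p = 0.164 by limma). MAP2K1, which encodes the ERK kinase MEK1, was the nearest to a call, with 6.88, 6.83 and 6.81 at normal and 7.42, 7.51 and 7.32 at high density. Its groups did not overlap, and its log2FC of 0.57 ± 0.08 (SE, adjusted p = 0.00206 by limma) was just below the FC threshold. Without normal density replicate 1 it was 0.59 and without high density replicate 3 it was 0.62, and with a second quantile normalization 0.61, called in each case. MAP2K2, the gene of MEK2, had a log2FC of 0.17 (adjusted p = 0.353 by limma).

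Upstream, 3 of 20 genes for FGF ligands, receptors and adaptors were called, all ligands and all up, and 12 of the 20 were below background at both densities. Of all transcript clusters 3.97% were called up. FGF2, basic FGF, rose from 5.89, 5.89 and 5.78 to 7.19, 7.36 and 7.26, a log2FC of 1.41 ± 0.08 (SE, adjusted p = 4.75e-05 by limma). In size this was larger than the change of 99.0% of all transcript clusters. FGF9 was below background at normal density (3.82 ± 0.13) and above it in all 3 high density cultures (4.81 ± 0.11, SD, n = 3), which is at least 1.14-fold higher when the background level stands for the normal density signal (adjusted p = 5.24e-04 by limma). FGF18 was called with a difference in log2 signal of 1.01 (adjusted p = 1.14e-04 by limma), but its means of 3.53 and 4.54 were both below background. No FGF receptor gene was called, and FGFR1 had a log2FC of 0.17 and FGFR2 of −0.16, with adjusted p of 0.172 and 0.255.

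Of 15 other inhibitors of RAS and ERK signaling 1 was called up and 1 down. This is near the 12.8% called among transcript clusters with a group mean above background. ERRFI1, which encodes the EGF receptor inhibitor MIG6, rose from 6.34, 6.48 and 6.14 to 7.82, 7.46 and 7.70, a log2FC of 1.34 ± 0.12 (SE, adjusted p = 4.47e-04 by limma). SPRY3, the remaining Sprouty gene, went the opposite way from SPRY1 and SPRY4, from 7.01, 7.07 and 7.12 at normal density to 6.39, 6.13 and 6.50 at high density. It fell by 0.73 on the log2 scale ± 0.10 (SE, adjusted p = 0.00301 by limma) and stayed called without each culture in turn, but not by the test with unequal variances (adjusted p = 0.114). The log2FC of SPRED2 was 0.21 (95% confidence interval from 0.05 to 0.37, adjusted p = 0.0767 by limma), which was not called.

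Of 15 measured dual specificity phosphatases outside the 10 genes 2 were called up and 1 down. Among transcript clusters with a group mean above background 12.8% were called in either direction. DUSP7, a close relative of DUSP6 and like it a cytoplasmic ERK phosphatase, was measured at 5.81, 5.77 and 5.72 at normal density and at 6.91, 6.42 and 6.80 at high density. It rose by 0.94 on the log2 scale ± 0.13 (SE, adjusted p = 0.00227 by limma), with no overlap, and DUSP6 had the lower signal at high density. The difference between DUSP7 and DUSP6 was not tested. DUSP10, which acts on p38 and JNK rather than on ERK, rose by 0.59 ± 0.08 (SE, adjusted p = 0.00226 by limma), but it was not called without normal density replicate 1, high density replicate 2 or high density replicate 3, with values between 0.55 and 0.57. The atypical phosphatase DUSP19 fell by 0.65 ± 0.12 (SE, adjusted p = 0.0104 by limma), and was not called without normal density replicate 3 or high density replicate 3, with −0.57 and −0.58. By the methods' t-test DUSP19 was not called (adjusted p = 0.0690). None of DUSP7, DUSP10 and DUSP19 was called by the test with unequal variances (adjusted p = 0.135, 0.0700 and 0.0972).

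None of the 22 other ETS factors measured was called by limma and 0 by the methods' t-test, and 9 were below background at both densities. An unadjusted p below 0.05 in limma was found for 8 of the 22, against 32.3% of all transcript clusters. At any FC 1 passed the FDR threshold, against 19.1% of all transcript clusters and 31.9% of those with a group mean above background. The one that passed was ETV1, the third gene of the PEA3 group beside ETV4 and ETV5 and the member of that group with signals above background. It had log2 signals of 6.75, 6.78 and 6.66 at normal and of 7.20, 7.35 and 7.36 at high density. The groups did not overlap, and the log2FC of 0.57 ± 0.08 (SE, adjusted p = 0.00218 by limma) was just below the FC threshold. Without normal density replicate 2 it was 0.60 and without high density replicate 1 it was 0.62, and with a second quantile normalization 0.61, called in each case.

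Among 19 other transcripts that are known to respond to ERK 5 were called up and 2 down, against 3.97% and 3.51% of all transcript clusters. In either direction 12.8% of those with a group mean above background were called. HBEGF, an EGF receptor ligand, rose by 1.18 on the log2 scale, PLAUR, the urokinase receptor gene, by 1.07 and the cytokine gene LIF by 0.73 (SE 0.08, 0.09 and 0.12, adjusted p = 1.40e-04, 3.03e-04 and 0.00487 by limma). The immediate early transcription factor genes EGR1 and EGR2 were the other called rises. EGR1 rose by 0.73, and EGR2, not above background in any normal density culture, was at least 1.31-fold higher at high density. The ephrin receptor gene EPHA4 fell by 0.97 ± 0.09 (SE, adjusted p = 4.16e-04 by limma). CCND1, the gene of cyclin D1, fell by 0.86 ± 0.13 (SE, adjusted p = 0.00448 by limma), with 1 of 3 high density cultures above background and the high density mean below it. LIF, EPHA4 and CCND1 were not called by the test with unequal variances (adjusted p = 0.0937, 0.0734 and 0.116). That test called 3 rises and 0 falls in this list, and the methods' t-test called 4 rises and 2 falls. EGR2 was called by neither of these tests. The other 12 transcripts of this list were not called.

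**Figure D4:**
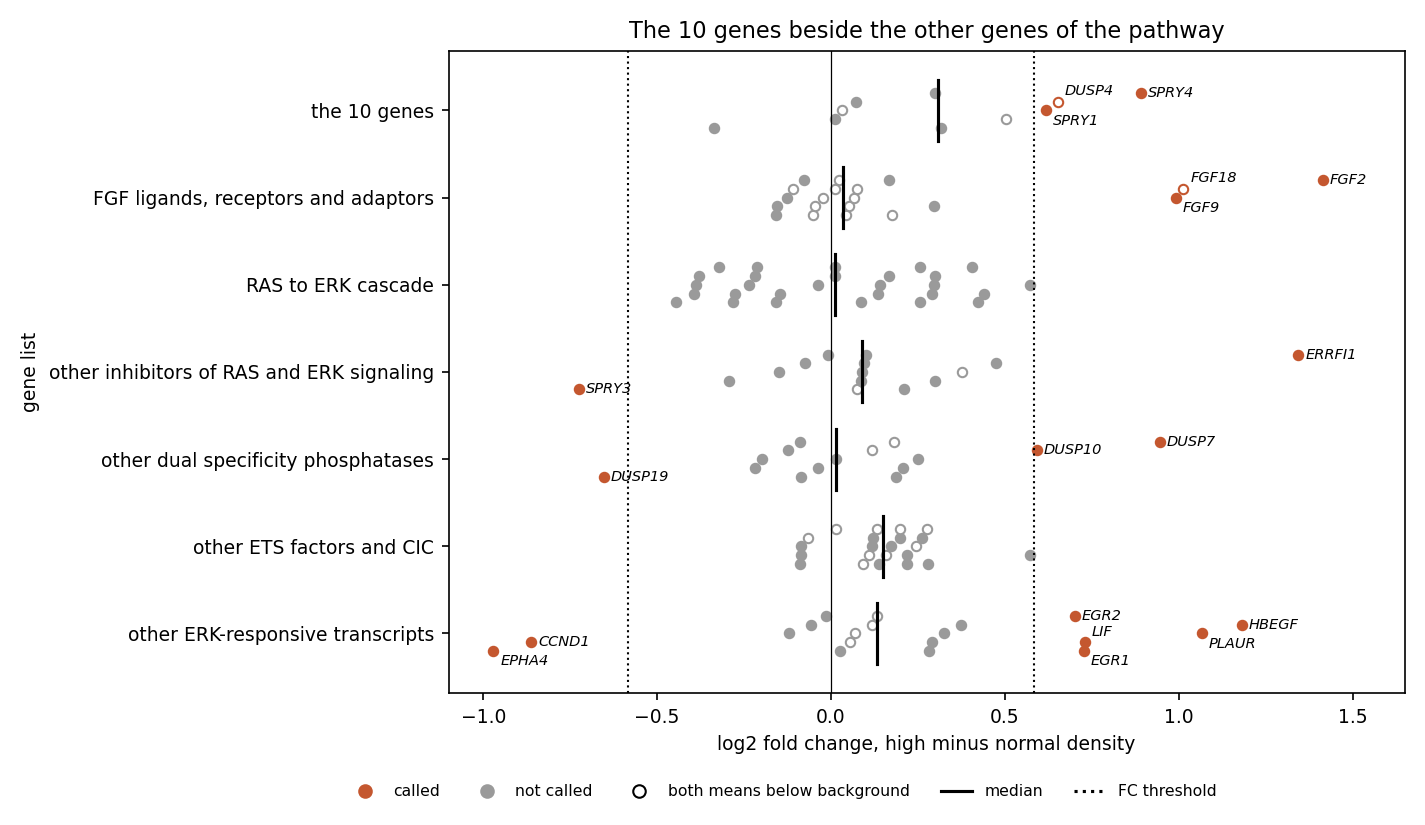
Log2 fold change, high minus normal density (x axis), of every measured gene of the 10 and of the 6 other lists (y axis, with no value for CIC), with called genes in orange and named, genes below background at both densities as open circles, a vertical bar at each list's median and dotted lines at an FC of 1.5. The RAS to ERK cascade lies between −0.45 and 0.57 with no called gene in limma on the deposited signals, while the FGF list holds called rises up to 1.41.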

How the data were processed

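RNA of 6 GC cultures was hybridized to the Affymetrix Bovine Gene 1.0 ST Array. The deposited log2 signals were made by the authors in Expression Console with the RMA procedure (background reduction, normalization, gene-level summary) and were used here without further normalization. All 26773 transcript clusters entered the fit. The table holds 0 columns of other samples. RMA compresses differences of dim transcript clusters, so the 95th percentile of the reporter control rows was used as a background level, and the number of arrays limits the precision. Groups were taken from the sample descriptions.

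The densities were compared by limma 3.58.1 (R 4.3.3, functions lmFit and eBayes) without covariates, the p-values being adjusted by Benjamini-Hochberg over the whole table, at the thresholds of the methods (FC above 1.5, p-value and FDR below 0.05). The exact permutation tests used scipy 1.17.1. The functions were tested on simulated data. The alternatives were the methods' t-test (analysis of variance for 2 groups), its Welch version (unequal variances), a trended robust prior in eBayes, weights per array, a replicate block, equal array medians, a second quantile normalization, a filter at the background level, and leaving out each culture. The within-array differences were added after the data were seen.

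The members and gene lists were chosen with earlier results of these data known. Named genes are the 10 members, MAPK3, MAP2K1, MAP2K2, ETV1, SPRED2, SPRY3, and in each list up to 3 called rises and 3 called falls. FGFR1, FGFR2, EGR1, EGR2 and the markers were named after their values were seen. DUSP8, DUSP28, ETV7 and CIC were not analysed here, and 1 further gene of the rule is not reported here. Of the 10 members 8 had their accession under the same symbol in the RefSeq gene table of ARS-UCD2.0, and 10 their symbol. The genome build of the array's annotation is not given in the sources used here, so no positions are printed. Figures were drawn with matplotlib 3.10.9.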

Additional observations from a re-analysis of the deposited data

How the results depend on the processing

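Of the 221 values computed for the members and their totals under 14 alternative settings, 198 counted as unchanged. So did 380 of 419 values for the other named genes and single lists. A gene counted as unchanged when its sign and its call, or lack of one, held. A count did so when within a factor of 1.5 of the count in the main limma fit. Crossing the FDR threshold alone was not counted, as by the methods' t-test for DUSP1, DUSP6 and ETV4 (adjusted p = 0.0902, 0.104 and 0.162). With the Welch version of the methods' t-test SPRY4 (0.89, adjusted p = 0.0667) and SPRY1 (0.62, adjusted p = 0.116) lost their call, 1 member was called, up, and the other genes of the pathway had 7 calls, 7 up and 0 down. SPRY1 was also not called with array weights (0.54) or with array medians made equal (0.57). Signs of values near 0 turned, with array weights for SPRY2 (−0.0236) and SPRED1 (−0.0716), with array medians made equal for SPRY2 (−0.0312) and ETV5 (−0.0132), and with a second quantile normalization for ETV5 (−0.0257). With each culture left out the log2 fold change was between 0.57 and 0.71 for SPRY1, −0.0422 and 0.0900 for SPRY2, −0.0932 and 0.20 for SPRED1, 0.38 and 0.63 for ETV4 and −0.0397 and 0.11 for ETV5. The causes were not tested. The filter at the background level leaves DUSP4, ETV4 and ETV5 without a value. Equal replicate numbers gave no sign of paired cultures (correlations of deviations of 0.05, −0.05 and −0.04, with 1 of 3 high density cultures closest to its own number). With 3 cultures per density this cannot decide whether a pool was shared. With the replicate block 3 members were called, with SPRY4 at 0.89, and over all transcript clusters 2020 were called in place of 2005. Signals near background limit DUSP4, ETV4 and ETV5.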
